A study of Homo sapiens with 21 samples.

Results

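The splicing regulators RBM24, RBFOX1, RBFOX2, MBNL1, MBNL2, MBNL3, CELF1, CELF2, QKI and ESRP1 were followed through an RNA-seq series of iPSC to CM differentiation. The members were 10 genes chosen by symbol, of 11851 genes with a listed transcript, and every row under their symbols was taken: 42 transcripts of 21537. All cells came from PGP1, an established human induced pluripotent stem cell (iPSC) line. Wild-type libraries covered undifferentiated iPSC and 4 later stages, namely M (mesoderm), CMes (its cardiac derivative), CP (progenitors of the heart) and CM (cardiomyocytes), with 3 libraries a stage from plates differentiated at different times. Differentiation used the WNT activator CHIR99021 followed by the WNT inhibitor IWP4, and beating CMs were selected with lactate. UBE2B-/-1 and UBE2B-/-2 CMs (3 libraries each) carried Cas9-made mutations in UBE2B, a ubiquitin-conjugating enzyme of the H2Bub1-deposition complex. Each of these lines was grown from picked colonies after its own editing experiment, and its CMs were taken as beating cells.

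The values came from 6 tables of transcripts, which were called iPSC/M, M/CMes, CMes/CP and CP/CM for the stage pairs and line 1 and line 2 for the UBE2B-/- lines. A table holds only transcripts that passed the authors' q-value limit of 0.05, so a transcript that is not listed may still be expressed. The authors also set a fold-change limit in their analysis, and whether these tables were cut by it was not checked. For each listed transcript the authors gave a mean over all libraries of the table and the variance left within stages. A level below is the geometric mean of estimated counts, and its SD is the spread between libraries of the same stage on the log2 scale. This spread includes the estimated quantification error, which for some transcripts was as large as all of it. No value per library was given, so depth is unknown, and the values are descriptions with no test. Each table was normalized separately, so levels from different tables stand side by side without a common scale, and only the centred differences below adjust for this. Levels of different genes were ordered only per kilobase (kb) of transcript. RNA was from bulk cultures, in which fewer cells of a type and less RNA per cell cannot be told apart.

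These proteins bind short motifs in pre-mRNA and raise or lower the use of nearby exons, often in opposition to each other. RBFOX proteins bind GCAUG, QKI binds ACUAA-like sites, MBNL proteins bind clusters of GC steps flanked by pyrimidines, and CELF proteins and RBM24 bind GU-rich sequence. RBM24, RBFOX1, RBFOX2, MBNL1, MBNL2 and QKI are known for splicing of sarcomere and cytoskeletal transcripts in striated muscle, where CELF and MBNL activities shift in opposite directions during heart development. ESRP1 is the epithelial splicing regulator, which maintains epithelial exons of genes such as FGFR2 and CD44.

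Several of these genes are themselves spliced into forms with different activity, and the coding ends of QKI are shown because the forms listed differed between tables. All QKI forms share the RNA-binding KH domain and differ at the carboxyl end, where the longest form has a nuclear localization signal. The lines below give, in lower case, the last 12 coding bases common to all and, in capitals, the coding end of each form up to its stop codon (GENCODE 44, GRCh38, plus strand of chromosome 6).
QKI-203: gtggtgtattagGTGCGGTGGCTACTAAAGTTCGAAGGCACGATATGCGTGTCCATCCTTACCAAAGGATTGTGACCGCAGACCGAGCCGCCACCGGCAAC
QKI-207: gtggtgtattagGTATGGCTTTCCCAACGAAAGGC
QKI-206: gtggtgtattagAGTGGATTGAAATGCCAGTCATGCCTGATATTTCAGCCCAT
The end of QKI-203 spans 89 bases between chr6:163566721-163570707 and belongs to the 341-residue form. QKI-202 has the same end but lacks 8 residues upstream of it (333 residues). The end of QKI-207, shared with QKI-204, has 23 bases at chr6:163565946-163565968 and belongs to a form of 319 residues. The end of QKI-206 has 41 bases at chr6:163564667-163564707.

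The RBFOX genes carry a pair of alternative coding exons, a 40-base exon known from brain transcripts and a 43-base exon known from muscle transcripts. They are shown because the listed RBFOX transcripts differed in them. Capitals mark bases at which the 40-base exons of RBFOX1 and RBFOX2 differ, and 34 of the 40 bases (85.0%) are identical.
RBFOX1, 40 bases: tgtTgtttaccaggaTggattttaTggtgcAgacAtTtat
RBFOX2, 40 bases: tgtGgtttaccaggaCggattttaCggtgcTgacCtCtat
RBFOX1, 43 bases: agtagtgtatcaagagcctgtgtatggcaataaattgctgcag
The RBFOX1 exons lie at chr16:7664929-7664968 (in RBFOX1-211 and RBFOX1-222) and chr16:7671557-7671599 (in RBFOX1-202), on the plus strand. The RBFOX2 exon lies at chr22:35756105-35756144 on the minus strand and is in RBFOX2-209, but not in RBFOX2-205.

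Between 4 and 8 of the 10 regulators were listed in each table. The iPSC/M table listed 4 (CELF2, ESRP1, MBNL3 and RBFOX2), where 22.0% of all genes were listed. The M/CMes table listed 7, against 39.7% of all genes, with CELF1, QKI and RBM24 in addition to those 4. The CMes/CP table listed 8, against 45.2%, and here ESRP1 was absent and MBNL2 and RBFOX1 were present. The CP/CM table also listed 8, against 66.5%, with MBNL1 but neither RBFOX1 nor ESRP1. The line 1 table listed 4 (MBNL1, MBNL3, QKI and RBM24), against 20.6%. The line 2 table listed 5 (CELF2, MBNL3, QKI, RBFOX2 and RBM24), against 20.4%. MBNL3 was the member listed in all 6 tables, and RBFOX1 was listed in 1. In CP/CM and both line tables MBNL3 was listed only through MBNL3-208, at 2.65, 4.89 and 4.89 counts.

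The members had most listed transcripts per gene in CP/CM. They held 7, 10, 16 and 27 transcripts from the iPSC/M to the CP/CM table, or 1.75, 1.43, 2.00 and 3.38 per listed member. All listed genes had 1.27, 1.39, 1.40 and 1.65. Of the 27 member transcripts in CP/CM, 9 had a mean under 10 counts, against 17.2% of all transcripts there. All 9 belonged to CELF1, MBNL1 or MBNL3, with means of 2.65 to 9.17 counts, so part of the count of transcripts came from forms with very few reads. The median SD of the member transcripts was 0.40, 0.47, 0.39 and 0.39 from iPSC/M to CP/CM, and that of all listed transcripts was 0.22, 0.26, 0.22 and 0.34.

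RBM24, which activates muscle exons and is required for sarcomere assembly in the heart, had the largest single stage difference among the member transcripts that GENCODE 44 names. It lies at chr6:17281361-17293871 on the plus strand. RBM24-202, the transcript with the full coding sequence (236 residues, 4 exons), was listed at 49.6 counts in M/CMes, 532 counts in CMes/CP and 1266 counts in CP/CM. The level was thus higher in each later table. The SD was 2.27 in M/CMes, where libraries of the same stage differed most, and 0.24 and 0.27 in the next tables. Of that first variance, 22.6% was the authors' estimate of quantification error.

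Neighbouring tables share a stage, so 2 times the difference of their means gives the difference between the stages they do not share. Each difference was taken relative to the median of all transcripts listed in both tables, because the tables were normalized separately. The SE averages the variances of the 2 tables, which takes the spread of a shared stage for that of the stages compared. Relative to the median, RBM24-202 was 6.44 ± 1.32 higher in CP than in M (log2, SE, n = 3 libraries a stage), at percentile 94.5 of the 2427 transcripts. Its SD was 2.27 in M/CMes and 0.24 in CMes/CP, so most of the spread lay in M and this SE is too small. RBM24-202 was 2.94 ± 0.21 higher in CM than in CMes, a 7.68-fold difference at percentile 89.6 of 3743. RBM24-207, an incomplete coding model of 80 residues, was listed at 12.4 counts in M/CMes and 531 counts in CP/CM. Its mean over CP and CM was 5.35 ± 0.56 higher than that over M and CMes (n = 6 libraries a side), and that of RBM24-202 was 4.65 ± 0.93 higher. Both RBM24 transcripts were therefore on the same side, by differences several times their SE.

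**Figure D1:**
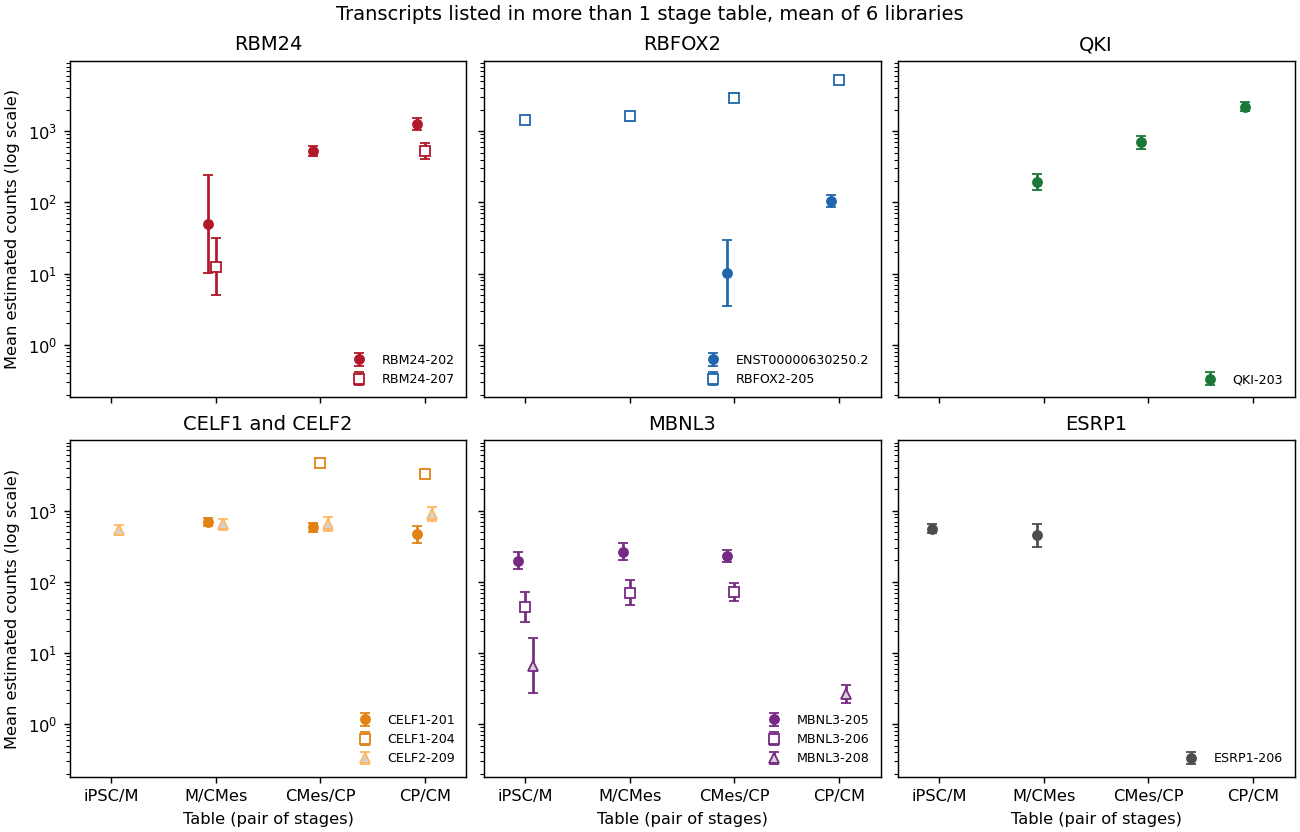
Mean estimated counts (log scale) of every member transcript listed in more than 1 stage table, by table. Points are the authors' means over 6 libraries and bars the SD between libraries of a stage, and RBM24-202, RBFOX2-205 and QKI-203 sit highest in the CP/CM table whereas CELF1-204 is lower there (3265 counts) than in CMes/CP (4712 counts).

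RBFOX2, the RBFOX gene used in most tissues, was listed in each stage table through the same transcript. The gene spans chr22:35738736-36028824 on the minus strand. RBFOX2-205 (367 residues, without the 40-base exon) had means of 1417, 1617, 2967 and 5324 counts from iPSC/M to CP/CM, with SDs of 0.14 to 0.20. Each later table was higher than the one before. The difference between CMes and iPSC was 0.23 ± 0.14, within 2 SE, but 0.38 and past 2 SE without the median subtracted. CP was 1.37 ± 0.16 above M, and CM was 2.13 ± 0.14 above CMes, a 4.37-fold difference. The mean over CP and CM was 2.06 ± 0.08 above that over iPSC and M (n = 6 libraries a side), and these tables share no library.

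The other RBFOX2 forms of the stage tables had 10.3 to 118 counts. RBFOX2-212 and ENST00000627612.2 had the same value in every column used (118 counts in CP/CM) and amount to 1 measurement, although both are among the 27 transcripts counted above (26 distinct measurements). ENST00000630250.2, which like ENST00000627612.2 has no entry in GENCODE 44, had 10.3 counts in CMes/CP and 105 counts in CP/CM. Its difference between CM and CMes was 7.01 ± 0.90, and the first of these means had an SD of 1.54, against 0.30 for the second. Most of the spread thus lay in CMes, and this SE is too small. For the second mean, the estimated quantification error was as large as the whole spread or larger. With the authors' final variance the SE of the difference was 1.17. RBFOX2-209 (451 residues), which contains the 40-base exon printed above, was listed only in the line 2 table. There its mean over the 9 CM libraries was 3615 counts with an SD of 0.19.

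RBFOX1, the paralog best known from neurons, heart and skeletal muscle, was listed only in CMes/CP, with the lowest level per kb of the members there. It spans chr16:5239802-7713340 on the plus strand. RBFOX1-222, RBFOX1-211 and RBFOX1-202 had 7.59, 4.61 and 3.13 counts, with SDs of 0.93 to 1.59. For RBFOX1-211 and RBFOX1-202, the estimated quantification error was as large as the whole spread or larger. Both kinds of alternative exon were thus among the listed transcripts, each at fewer than 10 counts. At 1.89 counts per kb, RBFOX1-222 was below every other leading transcript of that table, and RBFOX2-205 stood at 428 counts per kb.

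QKI, a regulator of muscle and vascular splicing and of circular RNA formation, was listed from M/CMes onwards. It spans chr6:163414000-163578592 on the plus strand. QKI-203, the form with the nuclear end, had 194, 696 and 2221 counts in M/CMes, CMes/CP and CP/CM, with SDs of 0.39, 0.30 and 0.21. Each table was higher than the one before. CP was 3.30 ± 0.28 above M (9.87-fold) and CM was 3.79 ± 0.21 above CMes (13.8-fold), at percentiles 85.3 and 92.9 of all transcripts in those pairs of tables.

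The QKI forms listed were not the same in each table. In CMes/CP, QKI-204 held 71.6% of the counts of the listed QKI transcripts (2578 counts, SD 0.10), QKI-203 held 19.3% and QKI-207 held 8.89% (320 counts). QKI-204 and QKI-207 have the 23-base end and together exceeded QKI-203 there. GENCODE 44 marks QKI-204 as a target of nonsense-mediated decay, with the same 319-residue coding sequence as QKI-207. QKI-206, with the 41-base end, had 5.41 counts (SD 1.13). In CP/CM, QKI-203 held 61.0%, QKI-202 held 26.8% (978 counts, SD 0.10) and the retained-intron transcript QKI-212 held 12.2% (445 counts). These shares are of counts not divided by transcript length. Per kb, QKI-203 was last rather than first in CP/CM, with QKI-202 at 920 counts, QKI-212 at 406 and QKI-203 at 237. For QKI-202 and QKI-212 there, the estimated quantification error was as large as the whole spread or larger. The order in CMes/CP was kept, with QKI-204 at 424, QKI-203 at 74.2 and QKI-207 at 56.3. None of the transcripts with the 23-base or 41-base end was listed in CP/CM, which does not give their level there.

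**Figure D2:**
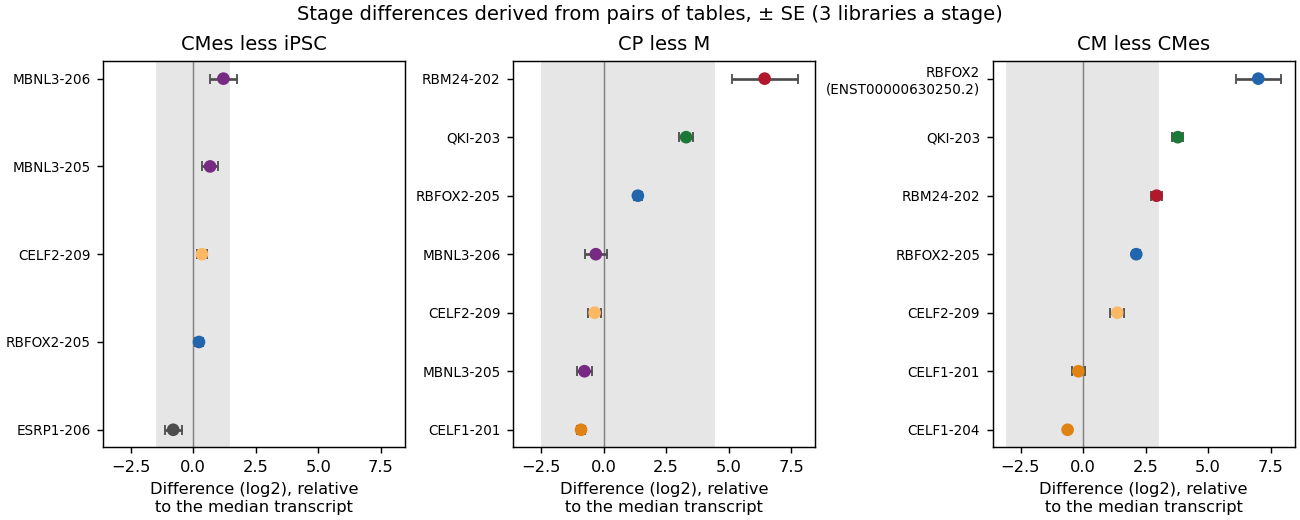
Differences between stages (log2, relative to the median transcript) for the member transcripts listed in both tables of a pair, with SE from 3 libraries a stage. The grey band covers the 10th to 90th percentile of all transcripts listed in both tables, and RBM24-202 in CP less M and the RBFOX2 transcript ENST00000630250.2 and QKI-203 in CM less CMes lie above it.

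The CELF genes showed smaller differences. CELF1, a GU-binding regulator of splicing, translation and decay that is high in the fetal heart, lies at chr11:47465933-47565569 on the minus strand. CELF1-204 (485 residues) had 4712 counts in CMes/CP, with an SD of 0.06, and 3265 counts in CP/CM. The difference of CM from CMes was -0.62 ± 0.09. CELF1-201 (482 residues) had 692, 578 and 465 counts from M/CMes to CP/CM. Its difference of CP from M was -0.90 ± 0.18, and that of CM from CMes was -0.19 ± 0.26, within its SE, but -0.63 and past 2 SE without the median subtracted.

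CELF2, the paralog found in heart, brain and lymphocytes, spans chr10:10798397-11336675 on the plus strand. CELF2-209 (508 residues) was listed in all 4 stage tables at 540, 641, 646 and 891 counts, with SDs of 0.23 to 0.34. The differences of CMes from iPSC (0.35 ± 0.20) and of CP from M (-0.36 ± 0.25) were within 2 SE. With no median subtracted the former was 0.50, past 2 SE, and the latter 0.023. CM was 1.37 ± 0.28 above CMes, and the mean over CP and CM was 0.88 ± 0.17 above that over iPSC and M. In CP/CM, CELF2-205 and CELF2-206 were also listed (561 and 101 counts). CELF2-209 and CELF1-204 were on opposite sides of the median transcript in CM less CMes.

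The MBNL genes, which promote adult splicing patterns in muscle and are sequestered by repeat RNA in myotonic dystrophy, differed in the tables that listed them. MBNL3, the member of the family linked to proliferating precursors, lies at chrX:132369320-132489968 on the minus strand. MBNL3-205 (342 residues) had 197, 262 and 230 counts in iPSC/M, M/CMes and CMes/CP, and MBNL3-206 (258 residues) had 43.9, 70.5 and 72.2 counts. For MBNL3-205, the difference of CMes from iPSC was 0.67 ± 0.33 and that of CP from M was -0.76 ± 0.29. The latter was -0.38, within 2 SE, without the median subtracted. For MBNL3-206 these differences were 1.20 ± 0.53 and -0.31 ± 0.43, the first within 2 SE with the SE from the authors' final variance (0.69) and the second 0.07 without the median subtracted. In CP/CM the only listed MBNL3 transcript was MBNL3-208, at 2.65 counts.

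MBNL2 lies at chr13:97221434-97394120 on the plus strand. MBNL2-201 (361 residues) was listed in CP/CM at 656 counts with an SD of 0.22. In CMes/CP the MBNL2 transcript listed was MBNL2-206, a target of nonsense-mediated decay, at 63.2 counts (SD 0.67). For both MBNL2 transcripts the estimated quantification error was as large as the whole spread or larger. MBNL1 spans chr3:152243828-152465780 on the plus strand, and its 8 transcripts in CP/CM had means of 2.77 to 21.2 counts with SDs of 0.20 to 2.19. The most abundant of them, MBNL1-201, had 3.30 counts per kb, against 144 for MBNL2-201. MBNL1-204 (382 residues) was listed only in the line 1 table, at 451 counts over the 9 CM libraries (SD 0.62). The level of MBNL1-204 in CP/CM is not known.

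ESRP1, on chromosome 8, was listed in the early tables only. ESRP1-206 (522 residues) had 559 counts in iPSC/M and 446 counts in M/CMes, and the difference of CMes from iPSC was -0.80 ± 0.34 (-0.65, within 2 SE, without the median subtracted). Its SD was 0.21 in iPSC/M and 0.54 in M/CMes, so most of the spread lay in CMes. This SE is too small, and the difference is not clearly past 2 SE. ESRP1-203 (681 residues) had 1638 counts in M/CMes, with an SD of 0.55 that the estimated quantification error equalled or exceeded. Of the epithelial and endoderm markers SOX17, FOXA2, AFP, EPCAM, CDH1, KRT8 and KRT18, 4 of 7 were listed in iPSC/M, 6 in M/CMes, 6 in CMes/CP, 5 in CP/CM and 3 in each UBE2B-/- table. CDH1, or E-cadherin, was listed in the same tables as ESRP1, at 7911 counts in iPSC/M and 8651 in M/CMes. EPCAM had 4087, 4101, 4170 and 2045 counts from iPSC/M to CP/CM, and the keratin KRT8 had 9509 counts in M/CMes and 33325 in CMes/CP. Their part in the ESRP1 values was not tested.

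Per kb, the order of the leading transcripts, meaning the listed transcript with the highest mean of each gene, differed between tables. The transcripts that passed the authors' limit differed too. The leader of a gene could thus be another form, as with CELF1-201 in M/CMes and CELF1-204 in CMes/CP. A gene with no listed transcript, such as ESRP1 after M/CMes, had no place. The orders therefore do not give a change in rank of the genes. In iPSC/M the order was ESRP1-206 (261 counts per kb), RBFOX2-205 (204), CELF2-209 (97.4) and MBNL3-205 (22.5), and each gap exceeded the larger SD of its neighbours. In M/CMes ESRP1-203 led (435), and MBNL3-205 (30.0), QKI-203 (20.7) and RBM24-202 (18.5) were lowest. The last of these gaps was smaller than the SD of RBM24-202. In CMes/CP CELF1-204 led (615), and RBFOX2-205 (428) and QKI-204 (424) did not differ beyond their SD.

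In CP/CM RBFOX2-205 led with 768 counts per kb. RBM24-202 (472) and CELF1-204 (426) did not differ beyond their SD, and QKI-203 followed (237). CELF2-209 (161) and MBNL2-201 (144) were also within their SD of each other. QKI-202, which is short (1063 bases), had 920 counts per kb in that table, the highest of any listed member transcript. Its estimated quantification error was as large as the whole spread or larger, and its level with a shorter length was not checked. RBM24-202 thus stood last of the leading transcripts listed in M/CMes and second of those listed in CP/CM, which were not all the same transcripts.

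**Figure D3:**
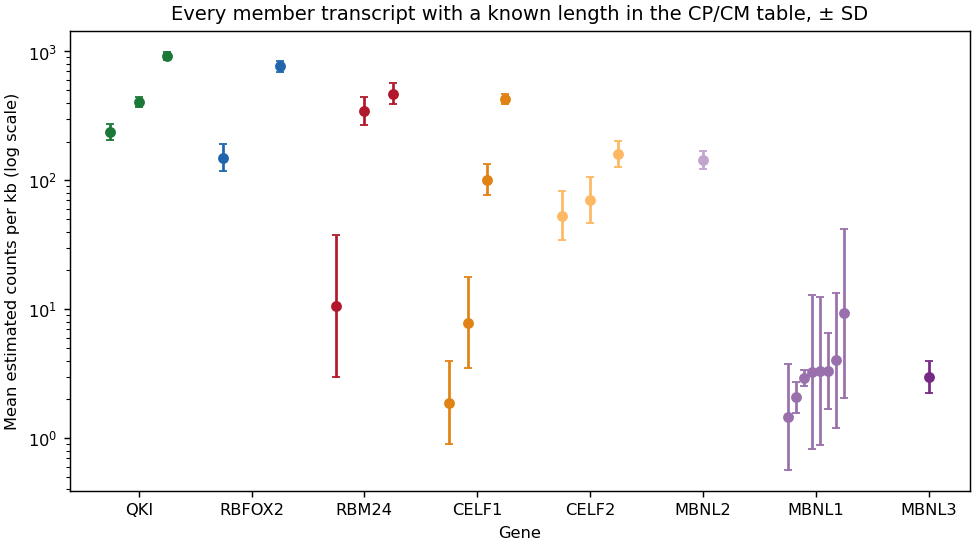
Mean estimated counts per kb (log scale) of every member transcript with a known length in the CP/CM table, by gene, with the SD between libraries of a stage. QKI-202 (920 counts per kb) and RBFOX2-205 (768) are highest, and the 8 MBNL1 transcripts and MBNL3-208 are all under 10 counts per kb.

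The UBE2B-/- tables add a mean over 9 CM libraries, from wild type and both lines. For all 1992 transcripts listed in both tables the mean was the same, so the tables come from a single fit, and a direction for the mutants is not given by it. Of the 9 member transcripts in either table, 6 were in both, against 47.1% of all transcripts. These were QKI-202, QKI-203, QKI-212, RBM24-207, RBM24-208 and MBNL3-208. MBNL1-204 was added by line 1, and RBFOX2-209 and CELF2-214 (4.73 counts) by line 2. UBE2B itself was listed for line 1 only, through ENST00000499038.2 at 79.7 counts over the 9 libraries, and at 87.5 counts in CP/CM. This pooled mean does not check the genotype labels.

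The QKI transcripts stood low among the transcripts shared by CP/CM and this fit. QKI-203 had 2125 counts (SD 0.39), against 2221 in CP/CM, QKI-202 had 1011 against 978, and QKI-212 had 431 against 445. RBM24-207 had 699 counts (SD 0.57), against 531. The median difference of the fit from CP/CM was 0.44 (log2) over the 1725 transcripts listed in CP/CM and line 1, in which scale, stage and genotype cannot be told apart. Relative to this median, the difference of the fit from CP/CM was -0.50 to -0.39 for the QKI transcripts, at percentiles 10.8 to 16.6, and -0.04 for RBM24-207. All transcripts had a range of -0.52 to 1.41 from the 10th to the 90th percentile. RBM24-208, for which no coding sequence is defined, had 66.7 counts against 12.9, a difference of 1.88 with an SD of 1.82 in CP/CM.

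**Figure D4:**
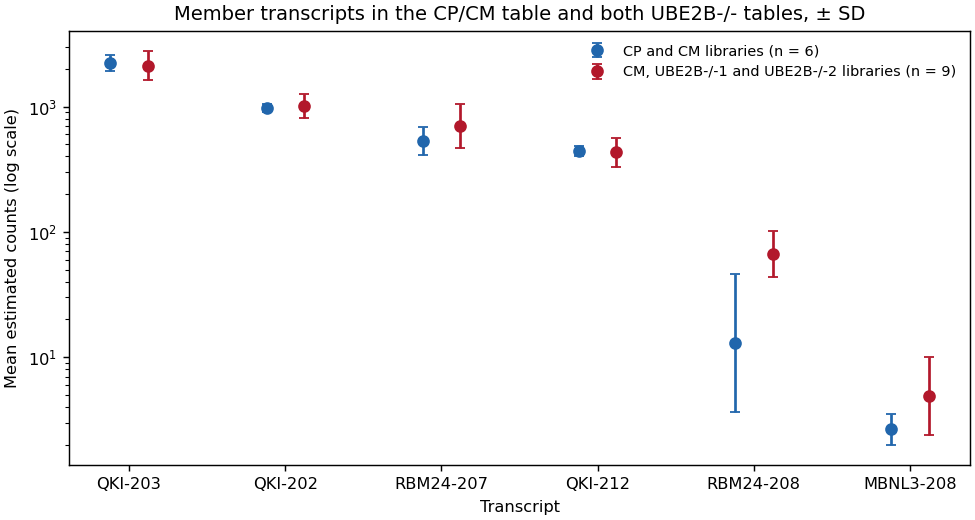
Mean estimated counts (log scale) of the 6 member transcripts listed in CP/CM and in both UBE2B-/- tables, with the SD between libraries of a group. The means are on the separate scales of their tables (QKI-203 at 2221 and 2125 counts), and the bars of RBM24-208 (12.9 and 66.7 counts) overlap.

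Over the pairs of tables that share a stage, 14 of 19 differences of member transcripts were larger than 2 SE, over 10 transcripts of 7 genes (13 with the SE from the authors' final variance). In CP less M it was 5 of 7 (3 higher, 2 lower), against 85.2% of the 2427 transcripts. In CM less CMes it was 6 of 7 (5 higher, 1 lower), against 73.6% of the 3743 transcripts. In CMes less iPSC it was 3 of 5 (2 higher, 1 lower), against 50.0% of the 1551 transcripts. Over pairs of tables that share no stage, it was 1 of 4 in CMes and CP less iPSC and M, against 82.1%, 2 of 3 in CP and CM less iPSC and M, against 80.7%, and 6 of 6 in CP and CM less M and CMes, against 78.0%. The same transcripts recur in these pairs, and the counts are too small to set the members apart.

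Of 26 other splicing regulators, 6 were listed in iPSC/M (23.1%, against 22.0% of all genes) and 5 in M/CMes (19.2%, against 39.7%). In CMes/CP it was 8 (30.8%, against 45.2%) and in CP/CM 16 (61.5%, against 66.5%). The line 1 table listed 3 (11.5%, against 20.6%) and line 2 listed 4 (15.4%, against 20.4%). These shares were near or below those of all genes. RBM20, the titin splicing factor mutated in dilated cardiomyopathy, was listed at 47.3, 227 and 2324 counts in iPSC/M, M/CMes and CP/CM. Its mean over CP and CM was 5.76 ± 0.33 above that over iPSC and M, a larger difference than that of RBFOX2-205. NOVA2, a neuronal and vascular regulator, was at 950, 280 and 48.0 counts in iPSC/M, CMes/CP and CP/CM, and the difference of CM from CMes was -4.62 ± 0.22. PTBP1, a repressor of neuronal and muscle exons, had 3379 counts in CP/CM and 4153 counts in both line tables. TIAL1, a U-rich RNA binding protein, had 1194 counts in M/CMes.

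Marker lists were counted in each table, but means pooled over stages cannot check the stage labels. Of 4 mesoderm markers, 3 were listed in iPSC/M, 3 in M/CMes, 4 in CMes/CP and 1 in CP/CM. Of 6 cardiac progenitor markers, 1, 4, 5 and 5 were listed in those tables. The 7 cardiomyocyte markers (TNNT2, MYH6, MYH7, MYL7, ACTN2, TTN and PLN) were all listed in CMes/CP and CP/CM, and 2 of 7 in M/CMes. MYH6 reached 20016 counts in CP/CM. Of the 6 pluripotent markers, 1 was listed in iPSC/M, 4 in M/CMes, 5 in CMes/CP, 5 in CP/CM and none in the line tables. By the highest listed transcript of each, LIN28A had 1175 counts in CP/CM (SD 1.55) and TDGF1 had 515. DPPA4, SOX2 and POU5F1 had 44.9, 36.9 and 17.8 counts there. Absence from the line tables does not give the level of these markers in those libraries. Markers of other cells were also listed in CP/CM, 5 of 6 mesenchymal ones (COL3A1 at 12883 counts), 4 of 4 smooth muscle ones (ACTA2 at 6424 counts), 2 of 4 endothelial ones (KDR at 1585 counts) and 2 of 4 neural ones (TUBB3 at 788 counts). In the 9-library fit COL3A1 had 50516 counts. Levels of QKI and RBFOX2, which such cells also express, are over all cells of a culture, and the part of these cells in them was not tested.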

How the data were processed

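Poly-A RNA-seq of 21 libraries was analysed, 15 wild type and 6 UBE2B-/-, grouped by their labels. Poor-quality reads had been removed by the authors (FASTX-Toolkit) before transcript abundance was estimated by Kallisto (hg38) and modelled in Sleuth. The deposited values used were the mean of the natural log of scaled estimated counts plus 0.5 and the variance estimates, given as scores in squared natural log units. The tables' effects, standard errors, p-values and q-values are the authors' own comparisons and were not used. There are 0 columns of values per library, so depth and its precision are unknown and no test was run.

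The pseudocount of 0.5 was removed after exponentiation. The SD was the square root of the residual plus quantification variance, over ln 2. Lengths, coding sequences and coordinates came from GENCODE 44 (GRCh38), joined by identifier without version (93.9% to 95.1% of a table's transcripts). Differences between tables were centred on the median of all shared transcripts, and the SE used 3 libraries a stage. It came from the mean of the 2 tables' variances, so the spread of a shared stage entered it. The calculation was tested on simulated data in which most transcripts did not differ between stages. Here every listed transcript had passed the authors' limit, so that test does not show that the median transcript is unchanged in these data. Every member was named. The transcript with the highest mean in a table spoke for its gene, and transcripts in 2 or more stage tables were followed. The members and lists were chosen with earlier results of these data known. Python 3.11.15, pandas 2.3.3, numpy 2.4.6 and matplotlib 3.10.9 were used.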

Additional observations from a re-analysis of the deposited data

How the results depend on the processing

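No paired analysis was possible because the tables hold no value per library, and leaving out each replicate was not run for the same reason. Without centring on the median transcript, the difference of CP from M was -0.52 for CELF1-201, 3.68 for QKI-203, -0.38 for MBNL3-205, 1.75 for RBFOX2-205 and 0.023 for CELF2-209, the last with the opposite sign, as for MBNL3-206 (0.07). The difference of CM from CMes was -0.63 for CELF1-201, 3.35 for QKI-203, 2.50 for RBM24-202, -1.06 for CELF1-204, 1.69 for RBFOX2-205 and 0.93 for CELF2-209, and that of CP and CM from iPSC and M was 1.91 for RBFOX2-205. With centring on transcripts of at least 100 counts in both tables, RBFOX2-205 was 1.57 higher in CP than in M. The other 20 uncentred differences and 31 differences under the second centring moved by less than the SD between libraries of a stage. Of the 19 stage differences, 15 were past 2 SE without centring, 13 with the second centring and 13 with the authors' final variance, against 14. Without centring RBFOX2-205 (0.38) and CELF2-209 (0.50) in CMes less iPSC and CELF1-201 in CM less CMes came past 2 SE, and ESRP1-206 in CMes less iPSC (-0.65) and MBNL3-205 in CP less M no longer were. MBNL3-205 was also within 2 SE with the second centring (-0.56), and MBNL3-206 in CMes less iPSC with the final variance. Of the 13 differences between pairs of stages, 11, 10 and 9 were past 2 SE in that order, against 9. With only means of at least 10 counts, 3 members were listed in the line 2 table, and the other 11 counts of members or transcripts stayed within 1.5 times. Per-length levels of the leading transcripts with 200 bases less or with the pseudocount kept (36 each) moved by less than that SD, and so did the 32 SEs from the authors' final variance. QKI-202 in CP/CM was not among these levels. Each value rests on transcripts that passed the authors' limit, a few reads stand behind the lowest means, and the spread between libraries of single stages is not known separately. An SE between stages is therefore too small where most of the spread lies in an unshared stage.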
